A study of Mus musculus with 6 samples.

Results

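The HOX genes of clusters A to D were examined in 2 sorted fractions of mouse bone marrow, Grem1+ and Grem1-, profiled on Affymetrix expression arrays. Members were all genes whose platform symbol was Hoxa, Hoxb, Hoxc or Hoxd followed by digits alone, taken from probe sets annotated with exactly 1 symbol. They numbered 33 genes among 18193 named genes, measured by 48 of 34945 named probe sets. Cluster A contributed 9 genes and 16 probe sets, cluster B 9 genes and 11 probe sets, cluster C 7 genes and 11 probe sets, and cluster D 8 genes and 10 probe sets. Hoxb8 and Hoxd4 were present only in probe sets with several symbols and were not members.

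Both fractions came from the same 3 mice, labelled as male Grem1;TdTomato animals on a C57BL/6J background, 6 to 8 weeks old, which had all been given tamoxifen by mouth. The Grem1- fraction was the non-recombined population negative for CD45, CD31 and Ter-119, and the Grem1+ fraction is described only as sorted for Grem1, with no gate stated for blood or endothelial antigens. The sort gene, Grem1, codes for a secreted protein that binds BMP ligands and keeps them from their receptors. How the reporter allele was built is not described in the labels, and 1 array was hybridised per fraction and mouse, so that each group held 3 arrays. The design text says that the fractions are matched by mouse. That arrays with the same number come from the same mouse was assumed from the titles, and each value given by mouse rests on it.

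HOX genes encode homeodomain transcription factors that give cells a position along the body axis and along the limb. Within a cluster the genes lie in the order of their paralogue numbers, and genes with the same number in different clusters are copies of 1 ancestral gene. Low numbers are known for the hindbrain and neck, middle numbers for the trunk, and high numbers for the limb, pelvis and tail. In the adult, skeletal stromal cells keep part of the HOX pattern of their embryonic origin, and blood stem and progenitor cells use members of clusters A and B. HOX proteins bind DNA together with TALE homeodomain partners of the PBX, MEIS and PREP families, and Polycomb and trithorax complexes hold the clusters off or on.

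Hoxd8 and Hoxd9 lie next to each other, and the bases before their start sites are shown with those of a further member and of a dim neighbour. These are the 250 bases upstream of the RefSeq (GRCm38.p6) start of Hoxd8, Hoxd9 and Hoxa9, all higher in Grem1+, and of Hoxd10, the neighbour of Hoxd9 that stayed dim on every array. CG dinucleotides, the sites of DNA methylation are in capitals.
Hoxd8, plus strand, chr2:74704365-74704614: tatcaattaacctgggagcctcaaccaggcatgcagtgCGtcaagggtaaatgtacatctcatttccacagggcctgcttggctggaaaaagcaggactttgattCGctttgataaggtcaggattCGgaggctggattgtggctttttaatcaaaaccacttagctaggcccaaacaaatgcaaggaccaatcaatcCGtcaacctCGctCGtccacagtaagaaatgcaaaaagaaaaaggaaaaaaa
Hoxd9, plus strand, chr2:74697513-74697762: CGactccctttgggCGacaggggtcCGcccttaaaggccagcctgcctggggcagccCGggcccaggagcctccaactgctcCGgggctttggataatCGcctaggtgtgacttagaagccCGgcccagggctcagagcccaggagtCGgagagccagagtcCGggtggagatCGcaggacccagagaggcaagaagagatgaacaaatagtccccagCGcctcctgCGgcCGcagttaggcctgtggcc
Hoxd10, plus strand, chr2:74691641-74691890: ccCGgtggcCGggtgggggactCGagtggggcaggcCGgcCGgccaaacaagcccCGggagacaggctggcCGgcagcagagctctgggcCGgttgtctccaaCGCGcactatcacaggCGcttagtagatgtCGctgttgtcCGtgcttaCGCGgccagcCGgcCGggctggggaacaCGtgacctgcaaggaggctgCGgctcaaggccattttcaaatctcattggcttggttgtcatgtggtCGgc
Hoxa9, minus strand, chr6:52227371-52227620: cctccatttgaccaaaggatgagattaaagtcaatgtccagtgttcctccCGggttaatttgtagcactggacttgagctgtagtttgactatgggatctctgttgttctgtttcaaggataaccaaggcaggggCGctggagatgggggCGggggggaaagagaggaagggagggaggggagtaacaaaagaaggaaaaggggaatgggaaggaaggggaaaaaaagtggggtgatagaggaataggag

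These stretches hold 6 CG dinucleotides for Hoxd8, 13 for Hoxd9, 20 for Hoxd10 and 3 for Hoxa9. Over the 21 HOX windows in the RefSeq promoter table, which covered 19 of the 33 genes, the median was 13 with a range of 2 to 35, beside a median of 6 over all 32851 windows of the same length. The table held no window for Hoxc8 or Hoxc10. Hoxd8, Hoxd9 and Hoxa9 were at or below the HOX median, and the dim neighbour Hoxd10 was above it. Windows of other genes that were dim on every array lay on both sides. Below the median were Hoxa2 with 6, Hoxb1 with 7, Hoxd12 with 10 and Hoxd3 with 12. Above it were Hoxd1 with 24, Hoxd13 with 31 and Hoxa13 with 35, and Hoxd11 had windows with 2 and 20. A link between CG number and expression was not tested. A search of both strands for TATAAA (the TATA box), TGATTNAT (the joint PBX and HOX site) and TGACAG (the MEIS site) found none of them in the 4 printed windows. They occurred in 12.4%, 2.82% and 15.9% of all windows and in 2 of the 21 HOX windows each.

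Array medians over all probe sets ran from 3.74 to 3.81 (log2), and 48.5 to 49.7% of named probe sets on an array exceeded log2 4, a chosen limit below which a value is called dim. The markers of the labelled cells were checked first. Grem1 itself stood at 3.69, 3.75 and 3.70 in the Grem1- arrays of mice 1, 2 and 3 and at 4.49, 4.14 and 8.61 in the Grem1+ arrays. This difference missed the threshold of 0.05 (adjusted p in limma 0.248, fit with 1 probe set per gene). Ptprc, the gene of CD45, stood at 11.78 to 12.37 in the fraction gated against CD45 and at 7.29 to 10.56 in Grem1+, and with its other probe set it was below log2 4 on all Grem1+ arrays. Over all 10151 genes tested with limma, 11.7% were higher in Grem1+ and 8.51% lower. Of 20 pan-haematopoietic genes tested 15 were lower in Grem1+, of 12 granulocyte genes 9, of 7 B lineage genes 4, of 6 erythroid genes 4, and of 4 endothelial genes 0, with 0 higher in these lists. Of 12 genes of blood stem and progenitor cells 5 were lower and 1 was higher. Of 20 chondrocyte genes 17 were higher, of 9 osteoblast genes 6 and of 6 niche stroma genes 2, with 0 lower. The summed level of the pan-haematopoietic list, the log2 of the sum of its unlogged values, ran from 15.22 to 15.33 in Grem1- and from 12.49 to 13.68 in Grem1+, and that of the chondrocyte list from 12.75 to 13.38 and from 15.58 to 15.76. For the stem and progenitor list it ran from 11.92 to 12.18 and from 10.50 to 11.15. As a measure of RNA length, the Gapdh control probe sets differed between the 3' and 5' end by 2.66 ± 0.34 in the Grem1- arrays and by 3.58 ± 0.51 in the Grem1+ arrays (log2, mean ± SD, n = 3). The actin controls differed by 0.16 ± 0.02 and 0.09 ± 0.11. Both arrays of mouse 3 were high for Xist (11.04 in Grem1-, 10.60 in Grem1+), the transcript of the inactive X chromosome, whereas the other 4 arrays read at most 2.99 by the same probe set. All animals are labelled male. In such bulk samples fewer cells of a type and less RNA per cell cannot be told apart, and the part of these markers in the HOX differences was not tested.

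HOX transcripts were mostly dim, and the ones above the limit lay mainly in Grem1+. The Grem1- arrays of mice 1, 2 and 3 had 5, 7 and 5 of the 48 HOX probe sets above log2 4, and the Grem1+ arrays had 15, 16 and 11. The groups did not overlap in this count, whereas the share of all named probe sets above the limit differed by little between the arrays. Of the 48 probe sets, 28 were above log2 4 on no array, 5 on 1, 5 on 2, 3 on 3, 3 on 4, 1 on 5 and 3 on all 6. Thus 10 probe sets of 9 genes were above the limit on 3 or more arrays, 20.8% of the HOX probe sets beside 52.0% of all named probe sets. By cluster these were 2 of 16 in A, 1 of 11 in B, 4 of 11 in C and 3 of 10 in D. By paralogue number they were 0 of 11 for 1 to 3, 7 of 20 for 4 to 8 and 3 of 17 for 9 to 13.

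**Figure D1:**
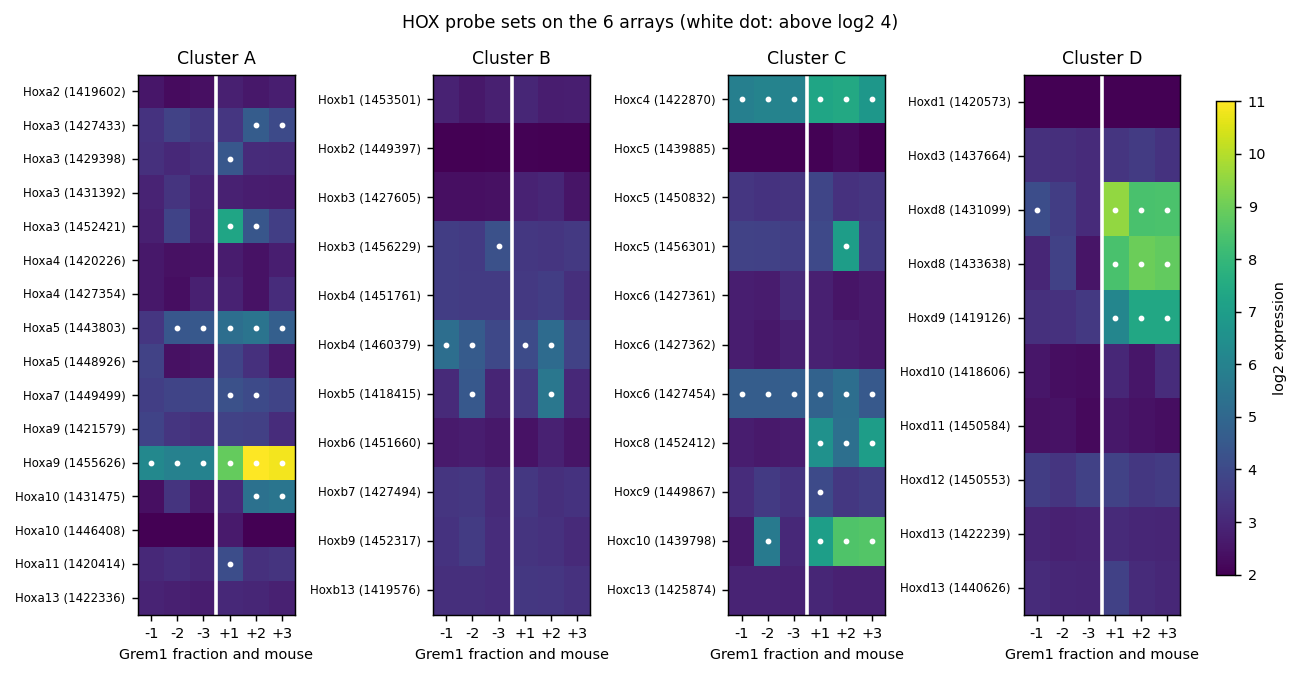
Log2 expression (colour) of all 48 HOX probe sets (rows, ordered by paralogue number within each cluster) on the 6 arrays (columns; the sign is the Grem1 fraction and the number the mouse), with a white dot where a value is above log2 4. Bright cells lie mainly in Grem1+ at Hoxa9, Hoxc4, Hoxc8, Hoxc10, Hoxd8 and Hoxd9, and cluster B is dark nearly throughout. Single bright cells stand in Grem1+ at Hoxa3 in mouse 1 and Hoxc5 in mouse 2.

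Only those 10 probe sets entered the test, in which limma was fitted to all 18157 named probe sets above the limit on 3 or more arrays, with the mouse as a block. Of them, 6 probe sets of 5 genes were higher in Grem1+ (Hoxa9, Hoxc8, Hoxc10 and Hoxd9 with 1 probe set each and Hoxd8 with 2), and 0 were lower. Over all probe sets tested 10.1% were higher and 7.76% lower, 17.8% in all. At an unadjusted p under 0.05 limma gave 7 HOX probe sets higher and 0 lower, beside 35.0% of all probe sets in either direction. Of the 6, the 1 probe set of Hoxc8, 1 of Hoxd8 and that of Hoxd9 entered through their 3 Grem1+ arrays alone and so had to differ to be tested, which is why the count is given as a description. With 1 probe set per gene, the one with the highest mean, 5 of 9 HOX genes were higher and 0 lower, while 11.7% of 10151 genes were higher and 8.51% lower, 20.2% in all. Without mouse 3, whose Xist values go against its label, and with no block, 4 HOX probe sets were higher and 0 lower.

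Taken over all 48 probe sets with no filter, 14 (29.2%) had every Grem1+ array above every Grem1- array, beside 17.2% of all named probe sets, and 2 (4.17%) had every Grem1+ array below, beside 13.9%. In 25 probe sets (52.1%) the value was higher in Grem1+ within each of the 3 mice, beside 26.6% of all named probe sets, and in 2 (4.17%) it was lower in each, beside 21.6%. Of the 14, 8 were among the 10 tested probe sets and 5 were above log2 4 on no array. Of the 25, 8 were tested and 12 were above log2 4 on no array. The median difference of the 28 probe sets that were above log2 4 on no array was 0.09, and that of all 48 was 0.23, beside 0.03 over all named probe sets.

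Cluster D held the largest differences. Hoxd8, a middle member known for the trunk and the base of the limb, stood at 4.12, 3.65 and 3.12 in the Grem1- arrays of mice 1, 2 and 3 and at 9.53, 8.41 and 8.45 in the Grem1+ arrays by probe set 1431099_at. Its other probe set, 1433638_s_at, stood at 2.95, 3.73 and 2.53 in Grem1- and at 8.42, 8.98 and 8.82 in Grem1+. The groups lay more than 4 log2 units apart in both, and the 2 probe sets of this gene gave like differences. The first differed by 5.17 (SE 0.31; limma adjusted p = 0.00989), or 4.76 with values below log2 4 set to 4, and the second by 5.67 (SE 0.35; limma adjusted p = 0.00989), at least 26.7-fold with that floor. By mouse the differences were 5.42, 4.76 and 5.32 for the first and 5.47, 5.25 and 6.29 for the second.

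Hoxd9, the next gene of the cluster and a member of the posterior group that patterns the upper limb, stood at 3.26, 3.27 and 3.51 in Grem1- and at 6.12, 7.40 and 7.38 in Grem1+. Mouse 1 had the lowest Grem1+ value, and the groups did not overlap. The difference of 3.62 (SE 0.38; limma adjusted p = 0.0135) came to at least 7.82-fold with values below log2 4 set to 4. Without mouse 3 and with no block it was 3.50 and still passed.

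The neighbours of this pair in cluster D were dim. Hoxd10, Hoxd11, Hoxd12 and Hoxd13 on one side, the genes of the distal limb and digits, and Hoxd3 and Hoxd1 on the other had no value above log2 4 on any of the 6 arrays. Hoxd12 lay between 3.38 and 3.78 and was not higher in Grem1+ in every mouse. Hoxd10 stood at 2.53, 2.33 and 2.29 in Grem1- and at 3.00, 2.55 and 3.13 in Grem1+, so that its groups were separate but all values were dim. In cluster D the values above the limit were thus those of Hoxd8 and Hoxd9 alone on this array type, with Hoxd4 measured only together with Hoxd3.

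**Figure D2:**
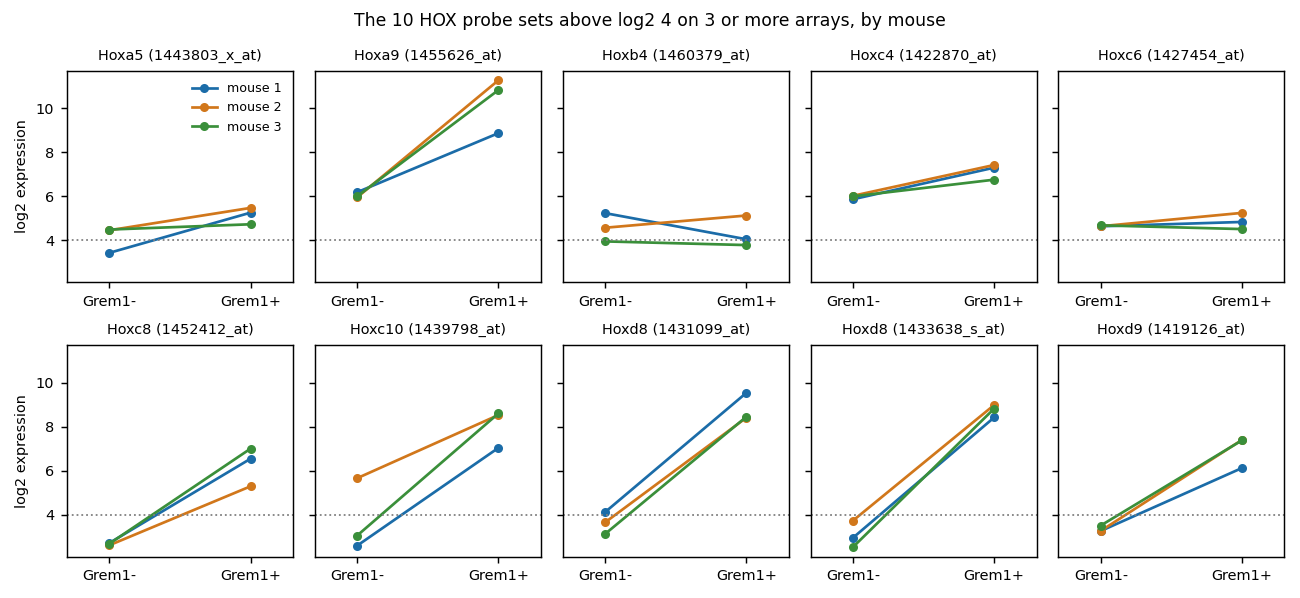
Log2 expression (vertical axis) of the 10 HOX probe sets above log2 4 on 3 or more arrays, in the Grem1- and Grem1+ fraction (horizontal axis) of each mouse, joined by lines; the dotted line is log2 4. All 3 mice rise by 2.68 log2 units or more in Hoxa9, Hoxc8, Hoxc10, Hoxd8 and Hoxd9, while the lines of Hoxb4 and Hoxc6 run in different directions.

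In cluster C, 2 members rose and 2 others were above the limit in both fractions. Hoxc8, known for the lower thorax and its nerves, stood at 2.71, 2.61 and 2.68 in Grem1- and at 6.54, 5.29 and 7.0005 in Grem1+. The Grem1- arrays differed by 0.10 among themselves and lay far below every Grem1+ array. The difference of 3.61 (SE 0.43; limma adjusted p = 0.0164) was at least 4.85-fold with values below log2 4 set to 4.

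Hoxc10, a posterior gene of the lumbar trunk and hindlimb, stood at 2.59, 5.66 and 3.05 in Grem1- and at 7.04, 8.53 and 8.60 in Grem1+. The Grem1- array of mouse 2 was above the limit and the other 2 were not, and the groups did not overlap. The difference was 4.29 (SE 0.60; limma adjusted p = 0.0206), or 3.50 with values below log2 4 set to 4, and by mouse it was 4.44, 2.87 and 5.55. The call was lost without the filter on dim probe sets (adjusted p = 0.0582) and, with no block, without mouse 1 (4.21, adjusted p = 0.0631) or without mouse 3 (3.66, adjusted p = 0.135). Over its 14 alternatives the adjusted p of Hoxc10 ran from 0.0102 to 0.135.

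Hoxc4, a cervical and forelimb-level gene that lymphoid cells also express, stood at 5.87, 6.03 and 6.00 in Grem1- and at 7.30, 7.42 and 6.76 in Grem1+. It was above the limit on all 6 arrays, and its groups did not overlap. The difference of 1.20 (SE 0.31) missed the threshold (adjusted p in limma 0.0706). Hoxc4 was called in the fit that left out the mouse block (limma adjusted p = 0.0308), and its adjusted p ran from 0.0308 to 0.215 over 14 alternatives. Hoxc6 stood at 4.64, 4.64 and 4.68 in Grem1- and at 4.84, 5.25 and 4.51 in Grem1+ by probe set 1427454_at, a difference of 0.21 (SE 0.31; limma adjusted p = 0.692), and its groups overlapped. The other 2 probe sets of Hoxc6 were dim on every array, at most 3.06.

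Hoxc5, Hoxc9 and Hoxc13 did not enter the test. Hoxc5 stood at 7.004 in the Grem1+ array of mouse 2 by probe set 1456301_at and between 3.54 and 3.98 on the other 5 arrays, so 1 array alone was high. Its other 2 probe sets were below 4 throughout, at most 3.89. Hoxc9, which lies between Hoxc8 and Hoxc10, reached 4.01 in the Grem1+ array of mouse 1 and was dim elsewhere. Hoxc13, known for hair and nails, was dim on all arrays, at most 2.98.

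In cluster A the change lay in Hoxa9, a posterior gene of the upper limb and of blood progenitors. It stood at 6.19, 5.96 and 6.01 in Grem1- and at 8.87, 11.27 and 10.83 in Grem1+ by probe set 1455626_at. All 6 arrays were above the limit, mouse 1 had the lowest Grem1+ value, and the groups did not overlap. The difference was 4.28 (SE 0.62; limma adjusted p = 0.0219), with 2.68, 5.32 and 4.83 in mice 1, 2 and 3. The call was lost without the filter (adjusted p = 0.0613) and, with no block, without mouse 2 (3.75, adjusted p = 0.0589) or without mouse 3 (3.9999, adjusted p = 0.0621), and the adjusted p ran from 0.00550 to 0.101 over 14 alternatives. The second probe set of Hoxa9, 1421579_at, was dim on every array, between 3.14 and 3.82, and differed by 0.05. The probe sets of this gene thus disagree, and which of its transcripts each detects is not given in the sources used here.

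Hoxa10, the neighbour of Hoxa9 and a gene of the thigh and lumbar region, was uneven between the mice. By probe set 1431475_a_at it stood at 2.36, 3.35 and 2.61 in Grem1- and at 3.05, 5.37 and 5.51 in Grem1+. It was higher in Grem1+ in each mouse, and above the limit in mice 2 and 3 only. With 2 arrays above log2 4 it did not enter the test. In a fit without the filter its difference of 1.87 did not pass (limma adjusted p = 0.157), and its other probe set was dim throughout, at most 2.64.

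Hoxa5, a gene of the neck and chest that also acts in the lung, stood at 3.43, 4.46 and 4.49 in Grem1- and at 5.26, 5.48 and 4.73 in Grem1+ by probe set 1443803_x_at. The groups did not overlap, but the difference of 1.03 (SE 0.42) missed the threshold (adjusted p in limma 0.169), and by mouse it was 1.83, 1.02 and 0.24. Its other probe set was dim on all arrays, at most 3.84.

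The remaining genes of cluster A were dim or high on few arrays. Hoxa3, which patterns the throat and thymus, had 4 probe sets that behaved differently. By 1452421_at it stood at 2.79, 3.82 and 2.79 in Grem1- and at 7.29, 4.42 and 3.68 in Grem1+, so the Grem1+ array of mouse 1 was far above the others. The remaining 3 probe sets of Hoxa3 lay between 2.67 and 4.63, and their differences ran from -0.29 to 0.51. Hoxa7 reached 4.23 and 4.02 in the Grem1+ arrays of mice 1 and 2, beside at most 3.89 in Grem1-. Hoxa11, a gene of the forearm and lower leg, reached 4.13 in the Grem1+ array of mouse 1 and was otherwise between 2.99 and 3.36. Hoxa2, Hoxa4 and Hoxa13 were dim on every array, at most 2.78, 3.13 and 3.04.

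Cluster B, whose members are known from blood progenitors and the trunk, showed no call in either direction. Hoxb4, a regulator of blood stem cells, was its only member above the limit on 3 or more arrays. By probe set 1460379_at it stood at 5.24, 4.57 and 3.95 in Grem1- and at 4.05, 5.13 and 3.79 in Grem1+, so that the groups overlapped and the mice went different ways. The difference was -0.27 (SE 0.44; limma adjusted p = 0.724), and it ran from -0.68 to 0.19 over 13 alternatives. Its second probe set was dim, at most 3.65.

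Hoxb5 stood at 3.06, 4.48 and 2.93 in Grem1- and at 3.49, 5.57 and 3.03 in Grem1+, with both fractions of mouse 2 above the limit and the other 4 arrays below it. Hoxb3 reached 4.22 in the Grem1- array of mouse 3 by probe set 1456229_at and was dim elsewhere, and its 2 probe sets had differences of opposite sign, -0.35 and 0.39. Hoxb1, Hoxb2, Hoxb6, Hoxb7, Hoxb9 and Hoxb13 were dim on all 6 arrays, with no value above 3.58. Over the 11 probe sets of the cluster the median difference was -0.03, with 5 higher and 6 lower in Grem1+. In the other clusters the median difference was 0.34 over 16 probe sets for A, 0.21 over 11 for C and 0.26 over 10 for D.

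Read by paralogue number, the calls lay in groups 8, 9 and 10. In group 8 both members, Hoxc8 and Hoxd8, were higher in Grem1+. The probe set shared by Hoxb8 and Hoxb7 was dim on every array, between 1.98 and 2.54. In group 9 Hoxa9 and Hoxd9 were higher, while Hoxb9 was dim on every array and Hoxc9 passed the limit on 1. In group 10 Hoxc10 was higher, Hoxa10 was above the limit in 2 mice and Hoxd10 was dim. Of the 8 probe sets of groups 11 to 13, the genes of the distal limb, genital tubercle and tail end, 7 were dim on every array and the remaining 1 was that of Hoxa11. Of the 11 probe sets of groups 1 to 3, 7 were dim on every array and 4, of Hoxa3 and Hoxb3, passed the limit on 1 or 2 arrays. A dim value is a value below a chosen limit on this array and not a measured absence, and levels of different probe sets were not set against each other.

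**Figure D3:**
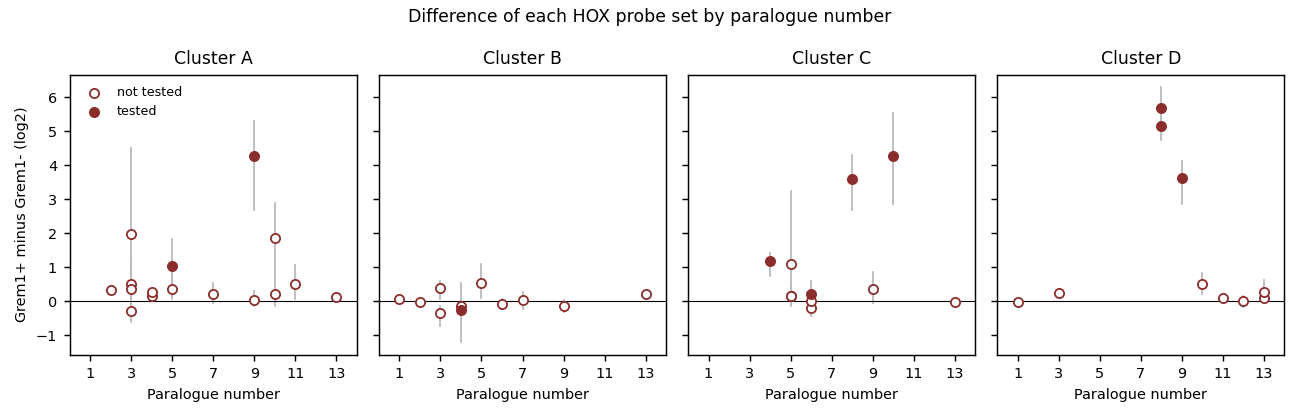
Difference of each HOX probe set, Grem1+ minus Grem1- (log2, vertical axis), by paralogue number (horizontal axis) in clusters A to D; filled points are the 10 tested probe sets, open points the 38 others, and grey bars run from the lowest to the highest of the 3 mice. Points above 3 stand at numbers 8 to 10 in A, C and D, and the points of cluster B run from -0.35 to 0.54. The bars of cluster B reach from -1.19 (Hoxb4) to 1.10 (Hoxb5). Bars also pass 3 at Hoxa3 (4.50 in mouse 1) and Hoxc5 (3.25 in mouse 2).

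Around the limit that decided which probe sets were tested, Hoxc8, Hoxd8 (1433638_s_at) and Hoxd9 were above log2 4 on exactly 3 arrays, all of them Grem1+. Just below it, on 2 arrays, were Hoxa7, Hoxa10, Hoxb5 and 2 probe sets of Hoxa3. In a fit of all 34945 named probe sets, with no filter, both probe sets of Hoxd8 (limma adjusted p = 0.0210 each), Hoxd9 (adjusted p = 0.0319) and Hoxc8 (adjusted p = 0.0410) passed, and no other HOX probe set did. In fits that dropped 1 mouse but still blocked on the others, limma called 0 of the 18157 probe sets, HOX or other, although 4967 to 5158 had an unadjusted p under 0.05.

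Of the partners with which HOX proteins bind DNA, 1 was called in each direction. Of 8 TALE genes named on the platform 7 were tested, of which 1 was higher and 1 lower in Grem1+, beside 11.7% and 8.51% of all genes, and their median difference was 0.16 beside 0.04 over all genes. Pknox2, which encodes the partner PREP2, stood at 2.66, 3.02 and 3.05 in Grem1- and at 6.78, 8.08 and 4.79 in Grem1+. Its groups did not overlap, and it was at least 5.86-fold higher with values below log2 4 set to 4 (3.64, SE 0.73, limma adjusted p = 0.0411 for the values as deposited). Pknox2 entered the test through its Grem1+ arrays alone. It did not pass with that floor or, with no block, without mouse 1 (3.40) or mouse 2 (2.93); with the floor its limma adjusted p was 0.0865 (range 0.0203 to 0.145 over 15 alternatives).

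Pbx2, a widely expressed PBX partner, stood at 9.59, 9.70 and 10.29 in Grem1- and at 8.36, 7.21 and 7.30 in Grem1+. It was lower in every mouse, by 2.24 (SE 0.44; limma adjusted p = 0.0392), and the groups did not overlap. The call was lost without the filter and, with no block, without mouse 2 (-2.11) or mouse 3 (-1.87). Its limma adjusted p ran from 0.00538 to 0.149 over 16 alternatives, of which 10 passed. By its most variable probe set Pbx2 differed by -5.14 (limma adjusted p = 0.0110). With its probe sets averaged it differed by -3.58 (limma adjusted p = 0.00538). Meis1, the partner of Hoxa9 in blood progenitors, was above the limit on 2 arrays and was not tested, standing at 3.70, 6.61 and 3.38 in Grem1- and at 4.68, 3.33 and 3.53 in Grem1+. Meis2, Meis3, Pbx3, Pbx4 and Pknox1 were tested and did not pass, with differences from -0.33 to 1.04.

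Of 13 trithorax and MLL genes tested, chromatin regulators that keep the clusters on, 0 were higher and 1 was lower, beside 11.7% and 8.51% of all genes. At an unadjusted p under 0.05 limma gave 1 higher and 4 lower, beside 36.1% of all genes in either direction, and their median difference was -0.49. The lower gene was Kmt2c, a histone methyltransferase of enhancers, at 9.78, 9.55 and 9.83 in Grem1- and at 8.56, 8.16 and 8.18 in Grem1+, a difference of -1.42 (SE 0.26; limma adjusted p = 0.0353). The call of Kmt2c was lost when any 1 mouse was left out, with or without the block (-1.52 to -1.30, limma adjusted p up to 0.151). Kmt2a, the methyltransferase best known for keeping HOX genes on, differed by -0.13 and did not pass. When probe sets were averaged per gene 4 of these genes were lower, and with no block 3.

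Of 15 Polycomb genes tested, 0 were called in either direction by limma, beside 11.7% of all genes called higher and 8.51% lower. At an unadjusted p under 0.05 limma gave 1 lower and 0 higher, beside 36.1% of all genes in either direction. Their median difference was 0.05. Eed, a core subunit of the complex that writes the repressive mark, stood at 10.06, 10.35 and 10.08 in Grem1- and at 5.78, 9.36 and 9.53 in Grem1+, so the Grem1+ array of mouse 1 was far below the rest. It differed by -1.94 (SE 0.86), which missed the threshold (adjusted p in limma 0.196). Jarid2, which guides that complex, differed by -1.91 (SE 0.93; limma adjusted p = 0.229), and again the Grem1+ array of mouse 1 was lowest, at 5.16. When its probe sets were averaged Jarid2 passed (-1.89, limma adjusted p = 0.0117), and 4 Polycomb genes were then lower. Jarid2 also passed by its most variable probe set (-2.65, limma adjusted p = 0.0161) and without shared probe sets (-2.65, limma adjusted p = 0.0132). The -1.91 and the 5.16 of mouse 1 are those of its probe set with the highest mean, a shared one. Jarid2 thus passed in 3 of its 16 alternatives, with a limma adjusted p from 0.0117 to 0.374.

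**Figure D4:**
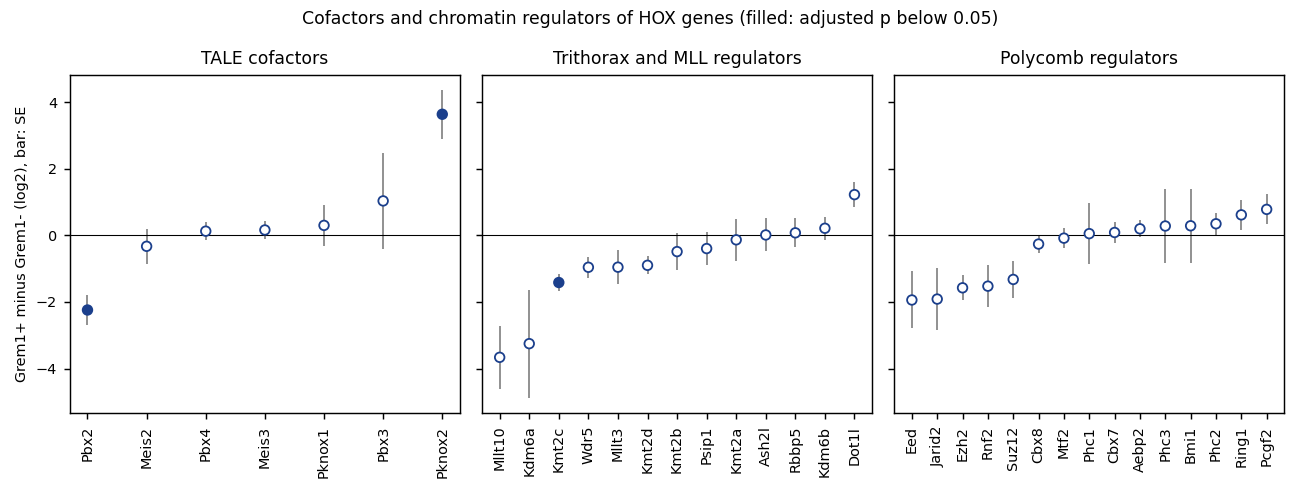
Difference, Grem1+ minus Grem1- (log2, vertical axis), with its standard error (bar) for the tested TALE cofactors, trithorax and MLL regulators and Polycomb regulators (horizontal axis); filled points have an adjusted p below 0.05. Pknox2 lies highest and is filled, Pbx2 and Kmt2c are filled below 0, and no Polycomb gene is filled.

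The genes that flank the clusters on the chromosome were not called either. Of 12 flanking genes 8 were tested, and 0 were higher and 0 lower in limma, beside 11.7% and 8.51% of all genes. At an unadjusted p under 0.05 limma gave 0 higher and 3 lower, beside 36.1% of all genes in either direction. Their median difference was -0.50. Lnpk, which lies beyond Evx2 on the digit side of cluster D, stood at 8.25, 7.73 and 7.96 in Grem1- and at 3.77, 4.41 and 6.83 in Grem1+. The groups did not overlap, and the difference of -2.98 (SE 0.73) missed the threshold (limma adjusted p = 0.0619), with a range from 0.0184 to 0.201 over 16 alternatives. Lnpk passed in 4 of the 16. These were all mice with no block, no block without mouse 3 (-3.90), the stricter filter and the variance trend. Cbx5, near cluster C, differed by -1.01 (SE 0.26, limma adjusted p = 0.0709) and passed in 2 of its 16 alternatives. The homeobox genes Evx1 and Evx2, next to the posterior ends of clusters A and D, were dim on every array, at most 2.59 and 2.60. Hoxd8 and Hoxd9 were thus higher in Grem1+ while Lnpk and Mtx2, outside the 2 ends of the same cluster, had differences of -2.98 and -0.80 that did not pass. The -2.98 of Lnpk is that of its probe set with the highest mean. With its probe sets averaged Lnpk differed by -1.24 (limma adjusted p = 0.113).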

How the data were processed

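Total RNA of the 6 sorted fractions was extracted with the RNAqueous-Micro kit and amplified by NuGEN's Ovation One-Direct method, per the labels' protocols. The deposited values are log2 expression per probe set, for which the submitters' processing notes name GCRMA. Neither its version nor its settings were stated in the labels, and the scale was read from the values (0.798 to 14.05). The table held 45101 probe sets, among them 64 controls. The platform annotation gave 1 symbol to 34945, several to 932 and none to 9160. All 48 HOX probe sets matched a RefSeq gene by Entrez identifier and symbol. Promoter windows came from a RefSeq table (GRCm38.p6), and no other coordinates were used.

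Probe sets above log2 4 on at least 3 of 6 arrays (18157) were fitted with limma 3.58.1 in R 4.3.3 (lmFit, eBayes), two-sided, with the mouse as a block because the design text states that the fractions are matched (the array number was taken as the mouse). P-values were adjusted by Benjamini-Hochberg over all probe sets, with a threshold of 0.05. A second fit kept, for each of 10151 genes, the tested probe set of highest mean and served the gene counts and the lists. The fits had 2 residual degrees of freedom. Deviations of same-numbered arrays correlated at 0.014, 0.052 and 0.031; the mouse block therefore follows the submitters' design, not these values. Identical values made up at most 0.00222% of any 2 arrays. Where every array of the lower group was dim, the fold is a lower bound, computed after raising dim values to log2 4. The code was tested on simulated data.

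HOX genes and 14 lists were chosen with earlier results of these data known: TALE, trithorax and MLL, Polycomb, flanking and non-coding HOX locus genes, and markers of blood, granulocytes, B and erythroid cells, stem and progenitor cells, endothelium, cartilage, bone and niche stroma. Named are every HOX gene, up to 4 called or else 2 tested members of each regulator list, and Grem1, Ptprc, Sox9 and Xist; Sox9 differed by 4.58 (limma adjusted p = 0.0108). Other names (Meis1, Kmt2a, Mtx2, Evx1, Evx2 and the tested TALE genes) were picked after their values were seen. The alternatives were no block, mice left out, other filters, normalizations, variance models and probe set choices.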

Additional observations from a re-analysis of the deposited data

Results flagged for a closer look

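Non-coding transcripts of the HOX loci entered no comparison, because their probe sets were above log2 4 on at most 1 array. Of the 3 named on the platform, 2 had a signal on 1 Grem1+ array above every Grem1- array. Hoxa11os, transcribed opposite Hoxa11, stood at 7.35 in the Grem1+ array of mouse 2 by probe set 1452400_a_at, and at 2.38 to 2.81 on the other 5 arrays. Its second probe set lay between 1.80 and 2.07. Hoxd3os1, transcribed opposite Hoxd3, stood at 7.45 in the same array by probe set 1460056_at, and at 2.25 to 3.34 on the others, while its second probe set stayed at or below 2.55. Hoxc5 was also high on that array alone, at 7.004, whereas Hoxa11 and Hoxd3 themselves were dim there, at 3.25 and 3.57. Hoxb5os, the third, was dim on all arrays, at most 3.32.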

How the results depend on the processing

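The HOX calls kept their direction under every alternative, but not all kept their side of the threshold. With 1 mouse left out and the mouse block kept, the higher HOX probe sets and genes both came to 0, as did every list in both directions. These fits had 1 residual degree of freedom. Without the replicate block 7 HOX probe sets and 6 genes were higher; with 1 mouse also left out, 4 to 5 probe sets and 3 to 4 genes. Without the filter 4 probe sets and 3 genes were higher. Lower HOX probe sets and genes were 0 throughout. Quantile normalization and median centring left 6 and 5. Hoxb4 differed by 0.19 without mouse 1, with or without the block, and by -0.68 without mouse 2, against -0.27, and no fit called it.

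The 10 HOX probe sets above the limit became 6 at log2 6, 3 when all 6 arrays were required and 20 when 1 array was enough. Lower trithorax and MLL genes, 1 at first, came to 3 without the replicate block, 2 with the stricter filter, 3 with a variance trend, 4 with the mean of probe sets, 3 with the most variable probe set and 0 to 0 with a mouse left out. Lower Polycomb genes, 0 at first, came to 1 without the block, 1 with the stricter filter, 1 with the trend, 1 without shared probe sets, 4 with the mean and 2 with the most variable probe set. Lower flanking genes, 0 at first, came to 2 without the block, 1 with the stricter filter, 2 with the trend, 1 with the mean and 0 to 1 with a mouse left out. Higher TALE genes, 1 at first, came to 0 with no filter, 0 with dim values raised to log2 4, and 0 to 1 with a mouse left out. With the stricter filter the count was 0, and Pknox2 was not tested. Without mouse 2 and with no block the 1 called was not Pknox2, whose limma adjusted p was 0.0960. Lower TALE genes, 1 at first, came to 0 without the filter and 0 to 1 with a mouse left out. The cause of these changes was not tested. With 3 arrays per group and most HOX values below log2 4, a small change in a dim gene was not detectable. A brighter gene that did not pass was not shown to be unchanged either.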

Other observations

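Probe sets annotated with 2 HOX genes were left out of the comparisons. The probe set shared by Hoxb8 and Hoxb7 lay between 1.98 and 2.54 on all 6 arrays, and the pair shared by Hoxd4 and Hoxd3 between 2.61 and 3.78. These probe sets were thus dim in both fractions. Evx1os, opposite Evx1, lay between 2.78 and 3.30. The Grem1- array of mouse 2 was the highest of the 3 Grem1- arrays for Hoxc10 (5.66), Hoxb5 (4.48), Hoxa10 (3.35), Hoxa3 (3.82 by probe set 1452421_at) and Meis1 (6.61). The Grem1+ array of mouse 1 was the lowest of its group for Hoxa9, Hoxa10, Hoxc10 and Hoxd9 and the highest for Hoxa3 (7.29 by probe set 1452421_at), while the 2 probe sets of Hoxd8 disagreed, with the highest value by 1431099_at (9.53) and the lowest by 1433638_s_at (8.42).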
